A study of Mus musculus with 6 samples.

Results

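The replication-dependent histone genes supply the histone protein that a cell needs when it copies its DNA. They are described here in C2C12 cells, an established mouse myoblast line, after transfection with a control siRNA (siCTRL, 3 libraries) or with an siRNA against Cox7a2l (siCOX7A2L, 3 libraries). Members are the gene rows whose symbol begins Hist1h, Hist2h, Hist3h or Hist4h in GENCODE M21, with a mean of at least 10 estimated counts over the 6 libraries. Of 52740 gene rows, 70 carry such a symbol and 66 were kept: 5 H1, 19 H2A, 18 H2B, 11 H3 and 13 H4 genes. One was left out as a pseudogene by its symbol (Hist3h2bb-ps), and 3 were too low (Hist1h2aa and Hist2h3c1, listed at 0, and Hist1h1t, with a mean of 1.83 counts). The lowest members kept were Hist2h2be, with a mean of 17.5 counts, and Hist2h2aa1, with 59.6. All cells were maintained in growth medium with fetal bovine serum, and the labels name no other agent or allele. RNA was total RNA depleted of ribosomal RNA and copied with random primers, so messages without a poly(A) tail were not left out by the priming.

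H2A, H2B, H3 and H4 form the protein core around which DNA is wrapped in a nucleosome, and H1 binds the DNA where it enters and leaves that core. Their genes lie in clusters, have no introns and are transcribed mainly in S phase, when Npat and its cofactors act on them. The messages end in a conserved stem-loop in place of a poly(A) tail. Slbp binds that stem-loop, the U7 particle with Lsm10 and Lsm11 guides the cut that makes the 3′ end, and the exonuclease Eri1 takes part in trimming and decay. In muscle, myoblasts leave the cell cycle as they form myotubes.

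Of the 66 members, 54 lie in the Hist1 cluster on chromosome 13, 9 in the Hist2 cluster on chromosome 3, 2 in the Hist3 cluster on chromosome 11, and Hist4h4 stands alone on chromosome 6. A stem-loop of 16 bases was found past the stop codon in the M21 models of 42 members, 21 to 58 bases after the stop. Of the other 24, 16 have fewer than 3 bases past the stop codon or no coding part in these models, so the end of the message is not in the model. The remaining 8 have at least 30 bases past the stop codon, and no match to the pattern searched was found there. The sites below show the base pairs by class, with 5 flanking bases in lower case and the stem and loop in capitals. They are DNA letters of the M21 transcripts.

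Hist1h1c (H1): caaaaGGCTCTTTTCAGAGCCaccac
Hist3h2a (H2A): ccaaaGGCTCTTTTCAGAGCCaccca
Hist1h2bk (H2B): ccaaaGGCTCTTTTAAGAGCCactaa
Hist1h3c (H3): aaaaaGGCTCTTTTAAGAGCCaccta
Hist1h4n (H4): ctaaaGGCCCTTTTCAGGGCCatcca
Hist1h4b (H4): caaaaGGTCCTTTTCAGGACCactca

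One form, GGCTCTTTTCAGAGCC, was found in all 3 of the H1 models with a stem-loop, in 10 of 11 H2A, 8 of 10 H2B and 4 of 7 H3 models. None of the 11 H4 models with a stem-loop had it. There inner stem pairs differed, as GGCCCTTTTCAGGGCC in 7, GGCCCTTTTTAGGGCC in 2 and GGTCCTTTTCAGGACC in 2. H3 and H2B shared the form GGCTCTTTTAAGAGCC, in 3 and 2 models.

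Short motifs near the start site differed between the classes in part. Promoters were taken from RefSeq (GRCm38.p6), where 58 members had 59 entries and 8 had none, and 4 short motifs were searched on both strands from 250 bases before to 50 after each start. CCAAT, the core of the element bound by NF-Y, was present in 84.7% of member promoters against 37.4% of all 32851 promoters. It was found in every H1, H2A, H2B and H3 promoter searched and in 3 of 12 H4 promoters. TATAAA was present in 57.6% against 13.6%. ATTTGCAT, the octamer known from H2B promoters, was present in 22.0% against 1.74%, in 6 of 17 H2A and 7 of 16 H2B promoters and in no other class. AAACACA, an element known from H1 promoters, was present in 4 of 5 H1, 1 of 17 H2A and 2 of 16 H2B promoters. That is 11.9% of member promoters against 7.18% of all. In the sequences shown, no match overlaps another, and a match is a description of the letters only. One promoter a class is shown because the classes differ in these motifs: the 150 bases before the start, 5′ to 3′ on the gene's own strand, with matches to the 4 motifs on either strand in capitals.

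Hist1h1b (H1, chr13:21780626-21780775, minus strand): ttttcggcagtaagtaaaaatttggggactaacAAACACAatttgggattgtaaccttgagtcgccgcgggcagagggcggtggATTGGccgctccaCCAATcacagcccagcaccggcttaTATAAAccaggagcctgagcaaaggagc
Hist1h2ah (H2A, chr13:22035644-22035793, minus strand): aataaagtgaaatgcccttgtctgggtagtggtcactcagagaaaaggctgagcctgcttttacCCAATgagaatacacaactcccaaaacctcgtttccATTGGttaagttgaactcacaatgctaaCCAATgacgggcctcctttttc
Hist1h2bk (H2B, chr13:22035671-22035820, plus strand): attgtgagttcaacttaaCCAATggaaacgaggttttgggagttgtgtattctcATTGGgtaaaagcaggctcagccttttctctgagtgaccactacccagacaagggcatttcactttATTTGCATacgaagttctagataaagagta
Hist2h3b (H3, chr3:96268504-96268653, plus strand): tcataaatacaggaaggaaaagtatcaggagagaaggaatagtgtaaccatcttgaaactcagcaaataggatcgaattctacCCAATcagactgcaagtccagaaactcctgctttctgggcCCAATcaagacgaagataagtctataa
Hist1h4k (H4, chr13:21750554-21750703, minus strand): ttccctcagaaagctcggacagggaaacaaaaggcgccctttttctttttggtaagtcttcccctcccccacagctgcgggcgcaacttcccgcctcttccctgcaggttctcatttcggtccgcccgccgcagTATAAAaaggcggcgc

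Hist1h2ah and Hist1h2bk are divergent neighbours: their printed windows are the same DNA over 123 bases, read from opposite strands. The CCAAT matches in that stretch therefore belong to both promoters.

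Many of these genes are close copies of each other, which limits what a single row can say. The share of a gene's 31-base words found in no other M21 gene was 40.9% in the median member, from 0% in Hist2h2aa2 to 99.7% in Hist1h1a. H1 genes were the most distinct, with a median of 96.1%, and H2A genes the least, with 18.1%. Hist1h3h and Hist1h3i share 85.3% of their words with each other, and Hist2h2aa2 shares all of its words with Hist2h2aa1. Values were not whole numbers in 86.4% to 93.9% of members per library, against 12.5% to 14.3% of all gene rows, since estimated counts divide shared reads among copies. Levels of members with few words of their own are therefore uncertain, and class sums are given beside them. A class sum also keeps some reads that could belong elsewhere, because only 56.4% of the words of the median H2A gene are limited to H2A members. The H2A members Hist1h2al and Hist1h2aj carry a pseudogene annotation in RefSeq and M21 and were kept because their symbols lack the pseudogene ending.

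Library totals ran from 9890217.5 to 17077826 estimated counts, lowest in siCOX7A2L replicate 3. In that library 1 unnamed gene row took 11.1% of the counts, against 5.81% to 7.57% in the others. Cox7a2l, the siRNA target, was at 58.0, 59.5 and 58.9 CPM (counts scaled to library size) in siCTRL replicates 1, 2 and 3 and at 6.72, 5.90 and 3.59 CPM in siCOX7A2L (log2 fold change -3.44, SE 0.19, edgeR adjusted p = 1.91e-05). Myoblast markers (Myod1, Myf5, Des, Cdh15, Chrna1) were present in every library, with summed levels of 1413 to 1962 CPM in siCTRL and 1300 to 2962 CPM in siCOX7A2L. Of 8 markers of other cell types, Sox10 and Epcam were at 0 throughout, and the summed level of all 8 was 2.51 to 5.51 CPM in siCTRL and 2.46 to 6.06 CPM in siCOX7A2L. The labels do not state that the replicates are separate cultures, so the spread behind each p-value may be technical.

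The pool of replication-dependent histone messages was smaller in siCOX7A2L in each of the 3 pairs, and no single gene passed the test. Summed over the 66 members, siCTRL replicates 1, 2 and 3 held 19613, 21040 and 10222 CPM, and siCOX7A2L held 14897, 17116 and 8076 CPM. The siCOX7A2L level was thus 0.760, 0.813 and 0.790 times that of its siCTRL partner, a mean log2 ratio of -0.34 ± 0.05 (SD over 3 pairs). In TPM (abundance scaled to transcript length and library size) siCTRL held 47912, 52025 and 23591, and siCOX7A2L held 36160, 38479 and 12044. Relative to siCTRL, the fall was then larger in pair 3 than in pairs 1 and 2, so the even ratios depend on the scaling. Without regard to the pairs the groups overlap, because replicate 3 was low in both. In a bulk sample, fewer cells in S phase and less histone message per cell cannot be told apart.

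All 66 members passed the filter on low counts. In edgeR's quasi-likelihood test, with the pairs of libraries as a block, 0 of 66 passed an adjusted p of 0.05 in either direction, where 0.293% of the 15022 genes tested were called lower. The lowest adjusted p among members was 0.0576. At an unadjusted p under 0.05, 44 members were lower and 0 higher, against 8.97% of all genes lower. The log2 fold change was negative in 64 members, against 48.9% of all genes, and its median was -0.39, against 0.0077 over all genes. In 52 of 66 members, 78.8%, all 3 pairs were lower in siCOX7A2L, against 20.8% of all genes. Groups that did not overlap at all were rarer, with 7 of 66 members lower, a share near the 7.62% of all genes. Members are not independent of one another, since they share a regulator, a time of expression and in part the same reads.

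The number of members called depended on the fit. DESeq2 with the same block called 17 of 65 lower (2.34% of all genes), and edgeR without the filter on low counts called 27 (2.58%). With the block replaced by a single replicate 3 term, edgeR called 3 (0.526%). Without the libraries of replicate 1 it called 4 (1.32%), without those of replicate 2 it called 21 (4.34%) and without those of replicate 3 it called 0. In the authors' deposited table, 28 of the 65 members with an adjusted p were below 0.05 and lower, and 0 were higher, where 3.45% of all genes in that table were lower. Those 28 were 2 H1, 2 H2A, 10 H2B, 9 H3 and 5 H4 genes.

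**Figure D1:**
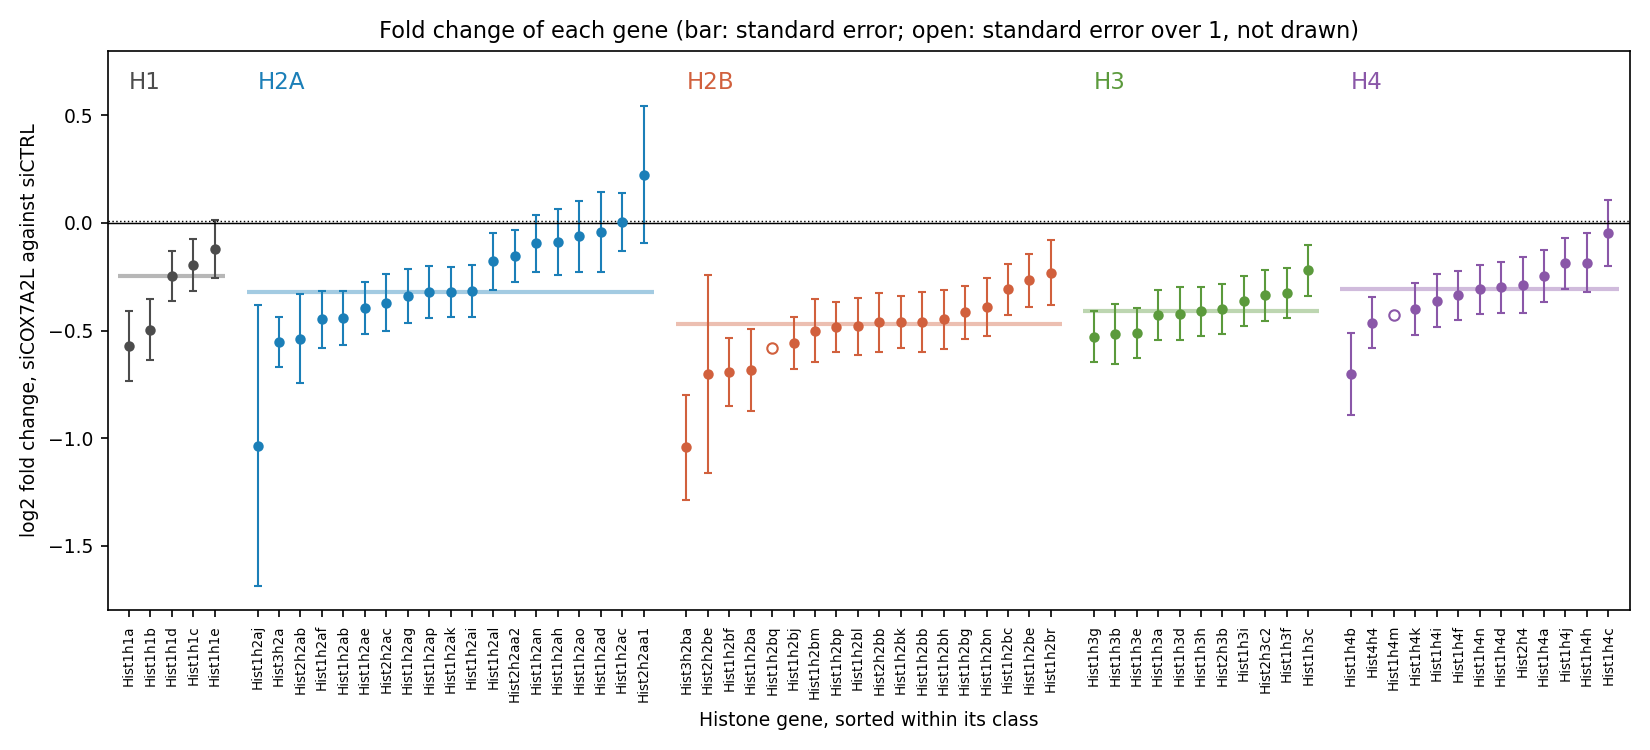
Log2 fold change of each of the 66 members, siCOX7A2L against siCTRL (vertical axis), grouped by class and sorted within it. Points are edgeR estimates with their standard error, thick lines are class medians, and the dotted line is the median of all genes tested; all but 2 H2A genes lie below 0, and the open points are Hist1h2bq and Hist1h4m.

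H1, the linker histone, had a class median of -0.25 on the log2 scale, with all 5 genes negative. Its summed level was 1804, 1897 and 1303 CPM in siCTRL and 1431, 1614 and 1102 CPM in siCOX7A2L, a mean log2 ratio of -0.27 ± 0.06 (SD over 3 pairs). Hist1h1a to Hist1h1d have 88.6% to 99.7% of words of their own, while Hist1h1e has 65.3% and shares 24.5% with the H2B gene Hist1h2be, so its level is less certain. Hist1h1a was at 189, 197 and 180 CPM in siCTRL and at 164, 144 and 85.1 CPM in siCOX7A2L. Every siCOX7A2L library lay under every siCTRL library for this gene (log2 fold change -0.57, SE 0.16, edgeR adjusted p = 0.113). Hist1h1b, with the highest mean level per length of the class at 396 TPM (abundance scaled to transcript length and library size), was at 365, 378 and 233 against 289, 312 and 126 CPM (log2 fold change -0.49). Hist1h1c, second at 263 TPM, was at 589, 617 and 299 against 467, 531 and 292 CPM, so that its 2 replicate 3 libraries were nearly level. Hist1h1e was at 281, 296 and 329 CPM in siCTRL and at 213, 272 and 367 CPM in siCOX7A2L. In CPM it was lower in pairs 1 and 2 and higher in pair 3, by 0.16 on the log2 scale, and highest in replicate 3 of each group. In TPM it was at 131, 138 and 161 in siCTRL and at 98.8, 116 and 112 in siCOX7A2L, thus lower in pair 3. Its sign in pair 3 therefore depends on the scaling.

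H2A had a median of -0.32, with 17 of 19 genes negative. Summed levels were 4843, 5309 and 2251 CPM in siCTRL and 3723, 4309 and 2108 CPM in siCOX7A2L, a mean log2 ratio of -0.26 ± 0.15. The 2 members with the highest level per length were Hist1h2al, at a mean of 2437 TPM, and Hist1h2ah, at 2219 TPM. Hist1h2ah was at 882, 986 and 207 CPM in siCTRL and at 696, 800 and 270 CPM in siCOX7A2L. It was lower in pairs 1 and 2, by 0.34 and 0.30 on the log2 scale, and higher in pair 3, by 0.38. Hist1h2al was at 710, 750 and 173 against 566, 598 and 188 CPM, with the same pattern of signs. In TPM both genes were lower in pair 3, Hist1h2ah at 745 against 635 and Hist1h2al at 859 against 623. Only 8.80% and 18.1% of the words of these 2 genes are their own. Hist3h2a, from the small Hist3 cluster, had the lowest adjusted p of all members together with a low spread. It was at 193, 198 and 97.3 CPM in siCTRL and at 141, 129 and 65.1 CPM in siCOX7A2L (log2 fold change -0.55, SE 0.12, edgeR adjusted p = 0.0576). Its pair differences were -0.46, -0.62 and -0.58, and it was singled out after its values were seen. Hist3h2a shares 32.1% of its words with Trim17, a gene outside the members, so its level is less certain. At the ends of the class stood rows that cannot be read alone. Hist1h2aj had the lowest estimate, -1.03 with an SE of 0.65, and rests on siCOX7A2L replicate 2, at 9.13 CPM against 30.8 and 42.1 CPM in the others of its group. Hist2h2aa1 had the highest, 0.22 with an SE of 0.32, at 1.445 to 8.405 CPM.

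H2B had the lowest class median, -0.47, with 18 of 18 genes negative and 16 lower in all 3 pairs. Without the libraries of replicate 3 its median was -0.331, above those of H3 (-0.387) and H4 (-0.357). Summed levels were 2674, 2897 and 2128 CPM in siCTRL and 2037, 2387 and 1297 CPM in siCOX7A2L, a mean log2 ratio of -0.46 ± 0.23. Hist1h2bk, with the highest level per length of the class at 970 TPM, was at 492, 535 and 228 CPM in siCTRL and at 376, 420 and 145 CPM in siCOX7A2L (log2 fold change -0.46, SE 0.12, edgeR adjusted p = 0.096). Hist1h2ah is its divergent neighbour and shares the window printed above. In pair 3, Hist1h2bk was lower in siCOX7A2L by 0.65 on the log2 scale. There Hist1h2ah was higher in CPM but lower in TPM, at 745 in siCTRL and 635 in siCOX7A2L. Of their words, 24.7% (Hist1h2bk) and 8.80% (Hist1h2ah) are their own, so this contrast is uncertain. Hist2h2bb, second at 742 TPM, was at 219, 218 and 237 against 173, 183 and 136 CPM, so that the groups did not overlap. It shares 56.1% of its words with Gm42743, a gene outside the members, so its level is less certain. Hist3h2ba had the lowest estimate of all 66 members at -1.04 (SE 0.24, edgeR adjusted p = 0.0728). It is a low gene, at 11.8, 12.04 and 2.09 CPM in siCTRL and at 5.20, 7.44 and 0.674 CPM in siCOX7A2L. Hist1h2br had the highest estimate of the class, -0.23.

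Of 66 members, 7 had groups that did not overlap, a share near the 7.62% of all genes. Of these 7, 5 were H2B genes: Hist1h2ba, Hist1h2bb, Hist1h2bf, Hist1h2bj and Hist2h2bb. The others were Hist1h1a and Hist1h3a, and the 7 are named after their values were seen. A low siCTRL replicate 3 makes groups overlap. Relative to replicates 1 and 2 it was 0.765 times in H2B, 0.704 in H1, 0.449 in H3, 0.444 in H2A and 0.402 in H4. The class make-up of the 7 was not tested. Hist1h2ba, an H2B gene best known from testis, was at 92.7, 100.1 and 132 CPM in siCTRL and at 64.1, 85.7 and 52.8 CPM in siCOX7A2L. Of its words, 55.9% are its own, and 44.1% are shared with Hist1h2br, so its level is uncertain. Hist1h2bj was at 183, 190 and 183 against 131, 138 and 110 CPM (log2 fold change -0.56, SE 0.12, edgeR adjusted p = 0.0584). Hist1h2bq, which shares 98.3% of its words with Hist1h2br, was at 0 CPM in siCOX7A2L replicate 3 and at 29.8 and 12.8 CPM in the other siCOX7A2L libraries. Its estimate has an SE of 1.64 and says nothing about direction.

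H3 had a median of -0.41, with all 11 genes lower in all 3 pairs. Summed levels were 5650, 6073 and 2631 CPM in siCTRL and 4201, 4805 and 1932 CPM in siCOX7A2L, a mean log2 ratio of -0.40 ± 0.06. Hist2h3b, the highest of the class per length at 2195 TPM, was at 1293, 1357 and 298 CPM in siCTRL and at 910, 1050 and 238 CPM in siCOX7A2L (log2 fold change -0.40, SE 0.12, edgeR adjusted p = 0.122). Hist1h3i, second at 2015 TPM, was at 834, 857 and 329 against 633, 661 and 265 CPM (log2 fold change -0.36). Estimates ran from -0.53 in Hist1h3g, at 244, 269 and 163 against 175, 201 and 102 CPM, to -0.22 in Hist1h3c, at 374, 423 and 207 against 297, 369 and 189 CPM. The lowest adjusted p of the class was 0.066. One H3 gene, Hist1h3d, has more than 50% of words of its own, so reads of this class are divided among copies. Hist2h3b also shares 80.6% of its words with Gm20634, a gene outside the members.

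H4 had a median of -0.31, with all 13 genes negative and 10 lower in all 3 pairs. Summed levels were 4641, 4863 and 1910 CPM in siCTRL and 3505, 4000 and 1638 CPM in siCOX7A2L, a mean log2 ratio of -0.30 ± 0.09. Hist1h4k, the highest of the class per length at 2044 TPM, was at 473, 513 and 209 CPM in siCTRL and at 326, 428 and 159 CPM in siCOX7A2L (log2 fold change -0.40, SE 0.12, edgeR adjusted p = 0.125). Hist1h4n, second at 1783 TPM, was at 826, 834 and 230 against 649, 678 and 190 CPM (log2 fold change -0.31). Hist1h4b, which carries the rarer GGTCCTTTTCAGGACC stem-loop, had the lowest estimate of the class, -0.70 with an SE of 0.19. It was at 179, 184 and 71.9 CPM in siCTRL and at 124, 152 and 27.8 CPM in siCOX7A2L, lower in each pair and most in pair 3, by 1.365 on the log2 scale. Hist1h4c had the highest, -0.05, at 88.9, 87.7 and 30.1 against 68.6, 83.3 and 38.2 CPM. Hist1h4m, at 0 CPM in siCOX7A2L replicate 2 and 24.5 CPM in replicate 3, shares 91.7% of its words with Hist1h4n and had an SE of 1.86.

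**Figure D2:**
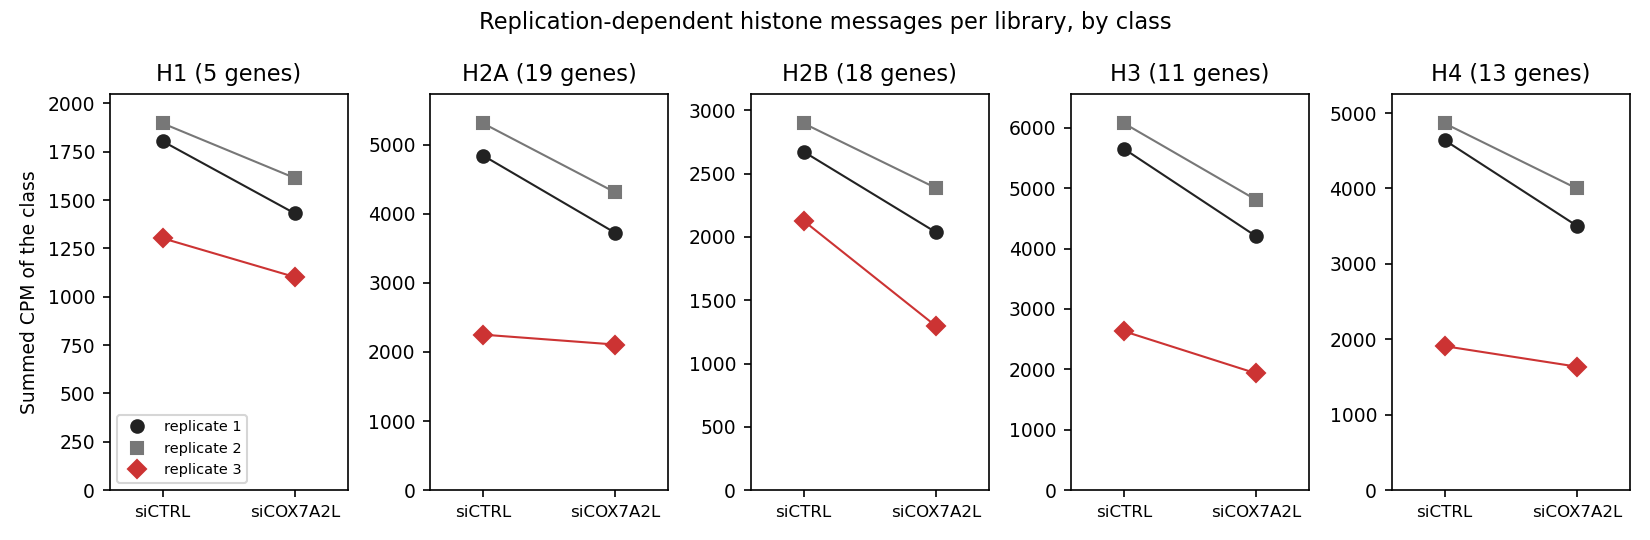
Summed CPM of each histone class (vertical axis, from 0) in siCTRL and siCOX7A2L, with a line joining the 2 libraries of each replicate number. Every line falls to the right, and the red diamonds of replicate 3 lie below the other 2 replicates in each class and group.

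In pairs 1 and 2 the classes were hardly distinct. Class sums in siCOX7A2L were 0.743 to 0.793 times siCTRL in pair 1 and 0.791 to 0.851 times in pair 2. In pair 3 they ran from 0.609 times in H2B to 0.936 times in H2A. The difference between the H2A and H2B log2 ratios was 0.01 and -0.02 in pairs 1 and 2 and 0.62 in pair 3, so the order of these classes rests on 1 pair. In CPM, H3 was lower relative to H1, to H2A and to H4 in each pair. The gaps were 0.13 ± 0.06, 0.14 ± 0.18 and 0.10 ± 0.11 on the log2 scale. H2B was lower relative to H1, by 0.19 ± 0.24. In TPM sums, H3 was not lower relative to H1 in pair 3. There siCTRL and siCOX7A2L held 996 and 444 TPM of H1, and 5335 and 2555 TPM of H3. The mean log2 ratios from TPM were -0.63 in H1 and -0.66 in H3. With 3 pairs, a two-sided exact permutation test cannot go below p = 0.25, so differences between classes are given as values only.

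**Figure D3:**
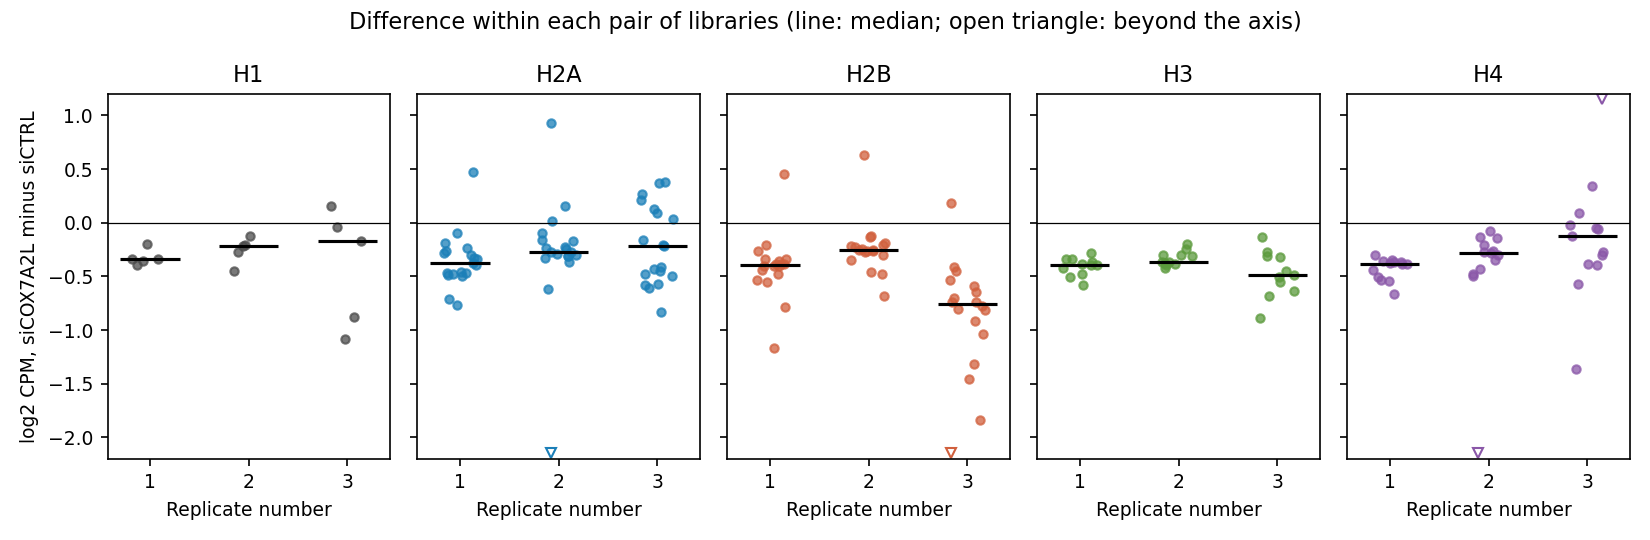
Log2 CPM difference, siCOX7A2L minus siCTRL, of each member within each replicate number, by class. Lines are medians and open triangles lie beyond the axis; points are tight around -0.4 and -0.3 for replicates 1 and 2 and spread widely for replicate 3, where H2B is lowest.

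The same held gene by gene. Over all 66 members the median pair difference was -0.39, -0.27 and -0.45 in pairs 1, 2 and 3, and the interquartile range was 0.14, 0.15 and 0.57. Over all genes tested that range was 0.40, 0.42 and 0.79. In pair 1, 64 members were lower, in pair 2, 62 and in pair 3, 54. Of the 12 members not lower in pair 3, 7 were H2A genes, 3 were H4 genes, and 1 each was H1 and H2B. These signs depend on the scaling. Lower in all 3 pairs were 52 members with TMM factors, 56 with library size alone and 62 with TPM. The median log2 fold change was -0.36 over the 25 members with at least 50% own words and -0.40 over the other 41. It was -0.35 over the 42 members with a stem-loop in their model and -0.41 over the other 24. By cluster it was -0.38 in Hist1 (54 genes) and -0.37 in Hist2 (9 genes), while Hist3h2a and Hist3h2ba had -0.55 and -1.04 and Hist4h4 had -0.46.

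Replicate 3 held fewer of these messages than replicates 1 and 2 in both groups. The summed level of all members in replicate 3, in CPM, was 0.503 times the mean of replicates 1 and 2 in siCTRL and 0.506 times in siCOX7A2L. In TPM, replicate 3 held 23591 against 47912 and 52025 in siCTRL, and 12044 against 36160 and 38479 in siCOX7A2L. The groups were thus less alike in TPM, with the larger fall in siCOX7A2L. Of 66 members, 56 were lower in replicate 3 of both groups, 26 of them at least 2-fold, and 5 were higher in both. The median log2 difference of replicate 3 from replicates 1 and 2 was -0.95 in siCTRL and -1.01 in siCOX7A2L, against -0.01 and -0.02 over all genes tested. This is a comparison within each group, with 1 library of that number, and has no test.

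The size of this difference varied by class. In siCTRL, the summed level of replicate 3 relative to replicates 1 and 2 was 0.402 times in H4, 0.444 in H2A and 0.449 in H3, but 0.704 in H1 and 0.765 in H2B. In siCOX7A2L it was 0.437 in H4, 0.430 in H3 and 0.526 in H2A, and 0.588 in H2B and 0.725 in H1. H2B made up 13.6% and 13.8% of member CPM in siCTRL replicates 1 and 2 and 20.8% in replicate 3. In siCOX7A2L it made up 13.7%, 13.9% and 16.1%. H1 and H2B differed least in both groups, but the order of the classes was not the same, and the groups were not tested against each other. Within H4, Hist1h4i had the lowest value of replicate 3 relative to replicates 1 and 2, at 258, 262 and 41.0 CPM in siCTRL and 191, 186 and 37.6 CPM in siCOX7A2L. Within H3, Hist2h3c2 hardly moved in siCTRL, at 498, 627 and 573 CPM. Hist2h3b of the same cluster was lower in siCTRL replicate 3 by 2.15 on the log2 scale. These 2 genes share 64.2% and 80.6% of their words with Gm20634, a gene outside the members, so both levels are uncertain. Hist1h4i and Hist2h3c2 are named after their values were seen.

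**Figure D4:**
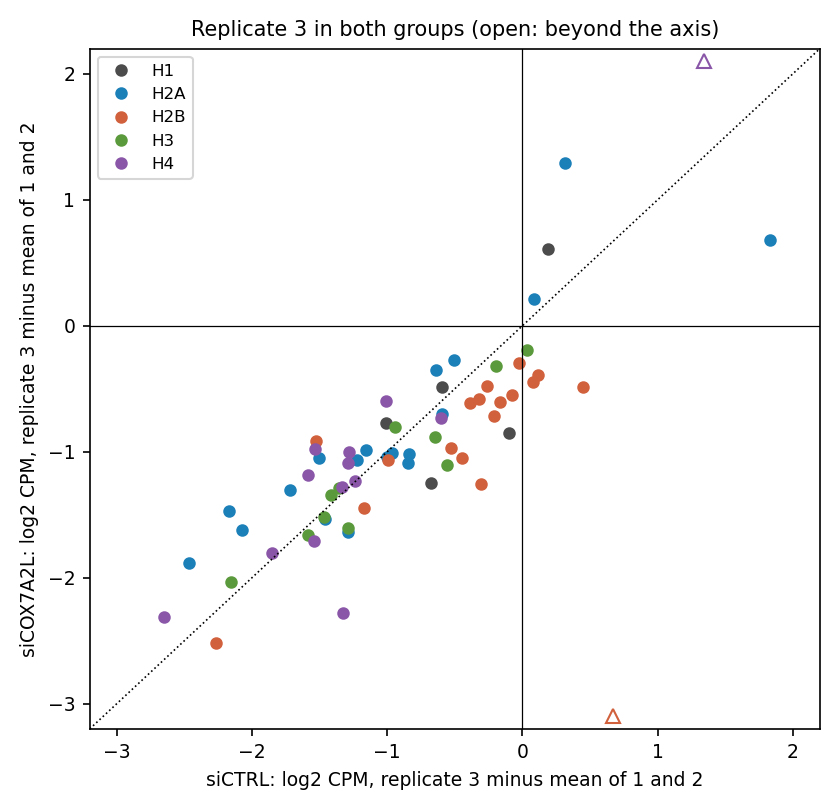
Log2 CPM of replicate 3 minus the mean of replicates 1 and 2 for each member, in siCTRL (horizontal axis) and siCOX7A2L (vertical axis), coloured by class. Most points lie in the lower left along the dotted line of equality; H4, H3 and most H2A genes lie farthest down and H2B genes nearer 0, and open triangles lie beyond the axis.

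Markers of muscle differentiation moved with replicate number. The summed level of 10 such genes (Myog, Myh3, Mymk, Mymx, Tnnt1, Tnnc1, Actc1, Ckm, Myh1, Myh8) was 15.2, 14.9 and 157 CPM in siCTRL and 33.3, 12.4 and 421 CPM in siCOX7A2L. Of the 9 tested, Tnnt1 and Actc1, both of the contractile apparatus, rose in siCOX7A2L (edgeR adjusted p = 0.00226 and 0.0263) and none fell. Over all 15022 genes tested, 65 were called higher and 44 lower. Actc1 was not called without the libraries of replicate 3 (adjusted p = 0.303), with the single replicate 3 term (0.245) or without the block (0.918), and Tnnt1 was not called without the block (0.846). On TPM with limma neither was called (0.057 to 0.324). In the authors' deposited DESeq2 results the adjusted p was 2.07e-07 for Tnnt1, 0.467 for Actc1 and 0.0157 for Myh3. All 9 were higher in replicate 3 of both groups. Their part in the low histone values of replicate 3 was not tested.

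Relative to length, H2A held the highest summed level in every library, from 4343 TPM in siCOX7A2L replicate 3 to 17760 TPM in siCTRL replicate 2, and H1 the lowest, from 444 to 1387 TPM. H3 stood above H4 in each library, at 12513 against 11325 TPM in siCTRL replicate 1 and at 2555 against 2554 TPM in siCOX7A2L replicate 3. H2B was second in siCTRL replicate 3, at 5660 TPM, and below H4 in the other libraries. Transcript models of members ran from 312 to 7425 bases, so TPM values differ for reasons of annotation: Hist1h1d, whose model is the longest, had 43.0 TPM at 381 CPM in siCTRL replicate 1. Member genes took 1.03% to 2.14% of all counts in siCTRL and 0.727% to 1.73% in siCOX7A2L.

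Histone variants outside the clusters, whose messages are mostly polyadenylated and not limited to S phase, had estimates on both sides of 0. Of 11 tested, 0 were called in either direction by edgeR, 7 estimates were negative, and the median was -0.06. At an unadjusted p under 0.05, 3 were lower and 1 was higher, where 1348 of the 15022 genes tested (8.97%) were lower and 1313 higher. H2afz, which replaces H2A at promoters, was at 374, 376 and 309 CPM in siCTRL and at 310, 290 and 432 CPM in siCOX7A2L (log2 fold change -0.06). H3f3a and H3f3b, which encode the replacement histone H3.3, had estimates of -0.06 and -0.14. H2afx, the variant phosphorylated at DNA breaks, whose gene also yields a stem-loop message, had -0.38. H1f0, a linker histone of cells that have left the cycle, was at 155, 169 and 243 against 107, 166 and 191 CPM (log2 fold change -0.30). The lowest and highest estimates of the list, named after their values were seen, were in Cenpa and H2afj. Cenpa, the H3 variant of centromeres, was at 109, 107 and 93.5 against 78.3, 87.5 and 50.8 CPM (log2 fold change -0.55, SE 0.14, edgeR adjusted p = 0.0928). H2afj, an H2A variant, was at 26.8, 32.7 and 16.8 against 39.9, 45.5 and 76.9 CPM (log2 fold change 1.07, SE 0.38, edgeR adjusted p = 0.251). The groups did not overlap in either gene. In the authors' deposited DESeq2 results, Cenpa and H2afj had adjusted p-values of 0.00783 and 0.00759, and no other variant was below 0.05. No test compared these variants with the clustered genes.

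Factors that make or remove histone messages gave no call in edgeR. Of 17 listed, 16 matched a gene row and 15 were tested. Sympk, a scaffold of the cleavage complex, was misspelt in the list and is not analysed here, and Rnu7 was listed at 0. Of the 15, edgeR called 0, 11 estimates were negative and the median was -0.24. At an unadjusted p under 0.05, 5 were lower and 0 higher, against 8.97% of all genes lower. Slbp was at 36.7, 38.9 and 45.5 CPM in siCTRL and at 29.0, 36.9 and 30.3 CPM in siCOX7A2L (log2 fold change -0.33, SE 0.15, edgeR adjusted p = 0.276). Npat, the coactivator at histone promoters, had -0.24, and Casp8ap2, a partner of Npat, had -0.46. Eri1 had -0.33, and Zfp473, a zinc finger protein of the U7 complex, had -0.33 at 0.927 to 2.27 CPM. Lsm10 and Lsm11, the core proteins of the U7 particle, had 0.19 and 0.01. Slbp was highest in replicate 3 of siCTRL, the library where histone messages were lowest in that group. Mbnl3, a splicing regulator and not an established histone factor, had the lowest estimate of the list, -0.67 (SE 0.14, edgeR adjusted p = 0.0576). In the authors' deposited DESeq2 results Mbnl3 had an adjusted p of 0.00179, and no other gene of this list was below 0.05.

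Chaperones that carry and deposit new histones gave 0 calls in edgeR among 20 tested, 14 negative estimates and a median of -0.16. At an unadjusted p under 0.05, 6 were lower and 0 higher, against 8.97% of all genes lower. Chaf1a, the large subunit of the factor that assembles nucleosomes behind the fork, was at 124, 130 and 122 CPM in siCTRL and at 86.8, 103 and 67.4 CPM in siCOX7A2L (log2 fold change -0.57, SE 0.13, edgeR adjusted p = 0.0745). Chaf1b, its partner, had -0.17. Asf1b, which hands H3 and H4 to that factor, had -0.52, and Nasp, which holds soluble H3 and H4, had -0.23. In the authors' deposited DESeq2 results, Chaf1a and Asf1b had adjusted p-values of 0.00554 and 0.00646, and Chaf1b and Nasp of 0.621 and 0.441. Hat1, Mcm2, Hjurp and Ssrp1 were also below 0.05 there, where 3.45% of all genes were lower.

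Among 27 genes of DNA replication and S phase entry, all estimates were negative and all genes were lower in all 3 pairs, with a median of -0.60. Rrm2, a subunit of ribonucleotide reductase, and Cdc45, a part of the replicative helicase, were called lower by edgeR, and no gene was called higher. At an unadjusted p under 0.05, 25 were lower and 0 higher, against 8.97% of all genes lower. DESeq2 with the same block called 15 (2.34% of all genes lower), and edgeR without the filter called 23 (2.58%). Over all genes, 0.293% were called lower and 20.8% were lower in all 3 pairs. Rrm2 was at 281, 263 and 371 CPM in siCTRL and at 194, 111 and 175 CPM in siCOX7A2L (log2 fold change -0.95, SE 0.15, edgeR adjusted p = 0.0231). Cdc45 was at 38.2, 43.2 and 30.7 against 23.2, 28.7 and 13.8 CPM (log2 fold change -0.81, SE 0.16, edgeR adjusted p = 0.0488). Both calls were lost without the block (adjusted p of 0.735 for Rrm2 and 0.768 for Cdc45), without the libraries of replicate 3 (0.0939 and 0.0796) and with limma on TPM (0.057 to 0.2). Rrm2 was also not called with the single replicate 3 term (0.0507), nor Cdc45 with library size alone (0.073). In the authors' deposited DESeq2 results, Rrm2 and Cdc45 had adjusted p-values of 0.000175 and 0.00107. Only Prim1, Gins1, Gins2 and Rfc4 of this list were not below 0.05 there, where 3.45% of all genes were lower. The pair medians of this list were -0.44, -0.38 and -1.02, beside -0.39, -0.27 and -0.45 for the histone genes. In replicate 3 the S phase genes had a median difference from replicates 1 and 2 of -0.15 in siCTRL and -0.74 in siCOX7A2L, beside -0.95 and -1.01 for the histone genes. The 2 lists were thus apart in siCTRL replicate 3, where histone messages were low and S phase genes were near their level in the other replicates. Whether the lists differ was not tested.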

How the data were processed

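RNA-seq of 6 C2C12 libraries was used. Tools listed in the submitters' processing notes are Salmon 0.13.1, DESeq2 1.30.1 and Trim Galore 0.6.4, with the build mm39. Which step each one did is not stated there. For each gene, the authors deposited estimated counts and TPM, and a result table with log2 fold changes and adjusted p-values. Whether counting used strand is not stated. Estimated counts were rounded and fitted over the whole table with edgeR 4.0.16 in R 4.3.3: TMM factors (0.902 to 1.05), filterByExpr by group, robust quasi-likelihood, replicate number as block, Benjamini-Hochberg adjustment over 15022 genes, threshold 0.05. The design foresaw counts. The fit was tested on simulated data. CPM are TMM-scaled. Pair differences are log2 CPM with a prior count of 2, and replicate 3 differences have 0.5 CPM added. Libraries of the same number correlated in their deviations from the group means (0.532, 0.452 and 0.669, against at most 0.435 across numbers), and were treated as pairs, narrowly for replicates 1 and 2. Alternatives used DESeq2 1.42.0, limma 3.58.1 on log2(TPM + 0.5 or 0.1), other scalings, no filter, no block and leaving out each replicate number. Named were, in each class, the 2 members highest in TPM and those with the lowest and highest fold change, plus called genes of the lists and a fixed set. Members, lists and rules were chosen with earlier results of these data known. Symbols, transcripts and stem-loops are from GENCODE M21, and promoters are from RefSeq GRCm38.p6. The files hold no coordinates.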

Additional observations from a re-analysis of the deposited data

How the results depend on the processing

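The median of the 66 members was negative under every alternative run, from -0.34 to -0.44 in the count fits. With TPM it was -0.63 with either pseudocount (0.5 or 0.1), where the median of all genes moved to -0.21 and -0.24, so relative to all genes it was close to the count fits. From TPM the class sums gave -0.63 (H1), -0.50 (H2A), -0.74 (H2B), -0.66 (H3) and -0.56 (H4) with either pseudocount. Members lower in all 3 pairs were 56 with library size alone and 62 with TPM, against 52 in the fit reported. Leaving out a replicate number gave medians of -0.41 to -0.34, members lower in all remaining pairs of 52 to 62, and class ratios of -0.29 to -0.24 (H1), -0.34 to -0.20 (H2A), -0.55 to -0.34 (H2B), -0.44 to -0.38 (H3) and -0.34 to -0.25 (H4).

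Counts of calls were unstable. Members called were 3 with a replicate 3 term in place of the replicate block, 27 without the filter, 17 with DESeq2, and 0 to 21 when a replicate number was left out, against 0 in the fit reported. Variants called were 2 without the filter, 1 with DESeq2 and 0 to 2 with a number left out. Histone mRNA factors called were 1 with the replicate 3 term, 1 without the filter, 1 with DESeq2 and 0 to 2 with a number left out. Chaperones called were 6, 5 and 0 to 4 under the last 3 of these. S phase genes called were 0 without the replicate block, 4 with the replicate 3 term, 1 with library size alone, 23 without the filter, 15 with DESeq2, 0 with limma on TPM, and 0 to 22 with a number left out, against 2. The cause was not tested. Without the replicate block, members called stayed at 0, with a median of -0.36.

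Among the genes named by the rule, 7 estimates changed sign under an alternative. Over all 66 members, 59 to 65 were negative, against 64 in the fit reported. Over the fits that leave out a replicate number, Hist1h1e ran from -0.262 to 0.0146, Hist1h2ah from -0.323 to 0.0376 (0.00947 without replicate 2), Hist2h2aa1 from -0.0836 to 0.706, Hist1h4c from -0.226 to 0.125, Lsm10 from -0.074 to 0.421, Lsm11 from -0.187 to 0.13, and H2afz from -0.326 to 0.0963 (0.0509 without replicate 1). Hist2h2aa1 was at -0.0465 and Lsm11 at -0.0545 without the replicate block, Lsm11 at -0.0245 with library size alone, and Lsm10 at -0.165 and -0.17 with TPM. The 2 splits chosen after seeing the data, members not annotated as pseudogenes and members with at least 50% own words, both gave 0 calls and medians of -0.39 and -0.36. Depth is lowest in siCOX7A2L replicate 3, which limits genes of a few CPM.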
